A study of Mus musculus with 6 samples.

Results

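The epithelial claudins were followed as 10 genes (Cldn1, Cldn2, Cldn3, Cldn4, Cldn7, Cldn8, Cldn10, Cldn12, Cldn15 and Cldn23) chosen by name, and all 10 had a probe set with a single gene symbol among the 19938 genes named in this way on the array. Each gene was read from 1 probe set, chosen for the highest mean of the 6 arrays. RNA came from 6 mammary tumors resected early in tumor development from mice with an MMTV-PyVmT transgene, in which the Polyoma virus middle T oncogene is under the MMTV promoter, which is active mainly in mammary epithelium, with 1 Affymetrix Mouse Gene 1.0 ST array per tumor. The 3 JAM-A-/- tumors (5333, 5346 and 5347) came from the cross with JAM-A null mice, which lack the protein in every cell type, and the 3 JAM-A+/+ tumors (5369, 5370 and 5393) carried the same transgene and intact JAM-A. JAM-A+/+ littermates served as controls in the study, while the age at resection and the litter behind each array could not be read from the sources. Whether the 3 tumors of a genotype grew in 3 different mice is not stated either, so p-values measure only the spread between these tumors.

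Claudins are membrane proteins with paired extracellular loops that join neighbouring epithelial cells at tight junctions. Some seal the space between cells, and others form pores that let small ions or water pass, so the set of claudins a tissue expresses determines how leaky its epithelium is. JAM-A, encoded by F11r, is an immunoglobulin-like protein of the same junctions, and both it and most claudins bind the scaffold ZO-1. In mammary epithelium Cldn3, Cldn4 and Cldn7 are typical luminal claudins, and the claudin-low class of breast cancer takes its name from their low level. The comparison asks whether claudin transcripts differ between tumors with and without JAM-A.

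Of the 10 claudins only Cldn10 met the criteria used for a difference, namely an unadjusted p under 0.05 together with a 1.3-fold or greater difference, and it was higher in JAM-A-/- tumors. That is 1 gene of 10, while 5.33% of all 19938 genes met the criteria in either direction and 4.73% met them as higher. These were 944 genes higher and 118 lower in the deposited values, a split that became 570 and 174 when all probe sets were quantile normalized again and 359 and 303 when the listed ones were. Cldn8 and Cldn10 were the 2 members whose genotypes did not overlap, both as higher, where 12.4% of all genes were separated that way and 2.55% as lower. Both also had an unadjusted p under 0.05, as did 8.16% of all genes. The median difference over the 10 claudins was 0.10 on the log2 scale, beside 0.09 over all genes, and 8 of the 10 lay above 0, as did 71.8% of all genes. With the listed probe sets quantile normalized, 50.6% of all genes lay above 0. No claudin passed the Benjamini-Hochberg adjustment over all 35557 probe sets, which F11r alone passed, 0.00502% of the 19938 genes. In bulk tumor RNA fewer cells of a type and less RNA per cell cannot be told apart.

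Upstream sequences are shown for Cldn10, Cldn4 and Cldn7. Cldn10 is the claudin that met the criteria, and the RefSeq table (assembly GRCm38.p6) places 2 transcript starts in it, which give forms with different first exons. Its windows of 250 bases before each start lie on the plus strand at chr14:118787621-118787870 and chr14:118854700-118854949. The first is 36.0% G and C and the second 72.4%, against a median of 52.4% over all 32851 windows. Cldn4 and Cldn7 are shown as the members whose window holds the E-box CAGGTG or its reverse complement CACCTG, the motif bound by repressors of the Snail and Zeb families, in capitals. Their windows lie at chr5:134946935-134947184 on the minus strand for Cldn4 and at chr11:69965171-69965420 on the plus strand for the second start of Cldn7.
Cldn10, first start: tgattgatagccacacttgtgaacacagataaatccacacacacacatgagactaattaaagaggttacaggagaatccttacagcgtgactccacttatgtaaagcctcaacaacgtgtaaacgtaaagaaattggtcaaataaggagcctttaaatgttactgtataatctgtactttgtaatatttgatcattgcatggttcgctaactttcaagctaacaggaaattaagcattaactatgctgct
Cldn10, second start: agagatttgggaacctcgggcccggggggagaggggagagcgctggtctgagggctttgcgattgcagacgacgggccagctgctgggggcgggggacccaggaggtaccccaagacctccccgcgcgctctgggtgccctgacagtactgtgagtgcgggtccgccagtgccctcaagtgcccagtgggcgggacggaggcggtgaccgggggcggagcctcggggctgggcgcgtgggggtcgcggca
Cldn4: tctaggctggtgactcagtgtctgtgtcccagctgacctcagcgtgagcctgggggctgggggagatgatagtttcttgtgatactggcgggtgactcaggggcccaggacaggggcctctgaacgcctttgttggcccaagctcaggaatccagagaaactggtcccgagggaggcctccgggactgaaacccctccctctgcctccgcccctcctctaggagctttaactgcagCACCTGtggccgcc
Cldn7, second start: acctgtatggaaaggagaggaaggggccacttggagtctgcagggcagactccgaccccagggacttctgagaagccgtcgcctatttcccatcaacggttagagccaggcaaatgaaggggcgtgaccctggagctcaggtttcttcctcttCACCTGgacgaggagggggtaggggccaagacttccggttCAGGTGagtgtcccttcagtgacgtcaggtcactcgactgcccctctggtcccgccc

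Windows were found for 8 of the 10 claudins, all but Cldn8 and Cldn23. These were 12 windows in all, with several starts for Cldn7, Cldn10 and Cldn12. The E-box was found in 2 of the 8 genes, once in Cldn4, 14 bases before the start, and at 97 and 57 bases before the second start of Cldn7, counted from the first base of the motif, which is 2 of the 12 windows, where 17.2% of all windows hold it on either strand. The letters GGGCGG, searched on both strands, were found in 8 of the 12 windows and in 32.7% of all windows. The 8 windows come from 7 of the 8 genes, and a gene with several windows has more chances of a match. The windows of Cldn12 overlap, and the same match lies in more than 1 of them. GGGCGG occurs 3 times before the second start of Cldn10. TATAAA, also searched on both strands, was found in 1 of the 12 windows, that of Cldn2, and in 12.4% of all windows. These matches describe the letters in the windows and no binding was measured.

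F11r, the targeted gene, read 5.91, 5.55 and 6.53 on the log2 scale in JAM-A-/- tumors 5333, 5346 and 5347 and 10.1, 10.23 and 10.47 in JAM-A+/+ tumors 5369, 5370 and 5393. The difference was -4.27 (standard error 0.24, adjusted p = 0.00667 from limma), and every array had the F11r level of its label. All values are RMA values on the log2 scale, so a difference of 1 is a doubling. Levels of different probe sets are not strictly comparable with each other, so genotypes were compared within a probe set. A level set against that of other genes, or against a fixed cutoff, is a rough guide only. As a guide to background, the 1027 olfactory receptor genes on the array, which mammary tissue is not known for, had a median level of 3.62 and a 95th percentile of 5.32. Every claudin of the 10 read above that percentile in all 6 tumors, Cldn15 at 5.62 to 5.87. The array medians lay between 6.23 and 6.34. The distance between the quartiles of an array ran from 3.27 in tumor 5369 to 3.74 in tumor 5347.

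**Figure D1:**
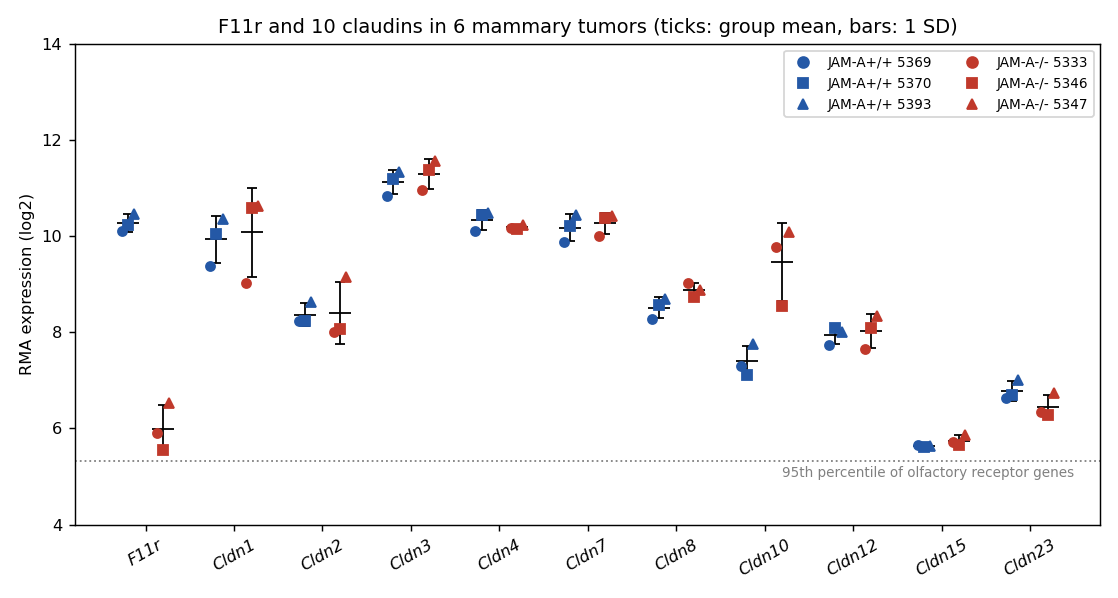
Vertical axis, RMA log2 expression of F11r and the 10 claudins (horizontal axis) with JAM-A+/+ in blue and JAM-A-/- in red, 3 tumors each. Symbols are tumors, ticks are group means, bars are 1 SD and the dotted line at 5.32 is the 95th percentile of olfactory receptor genes. Levels are comparable within a gene only. F11r and Cldn10 separate the genotypes widely and Cldn8 narrowly, while the other 8 claudins overlap.

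Cldn10 forms ion channels between cells, and its forms with different first exons prefer cations or anions. It read 9.77, 8.54 and 10.08 in JAM-A-/- tumors 5333, 5346 and 5347. In JAM-A+/+ tumors 5369, 5370 and 5393 it read 7.3, 7.12 and 7.76. The lowest JAM-A-/- tumor, 5346, lay above the highest JAM-A+/+ tumor, 5393, and tumors 5333 and 5347 stood more than 1 log2 unit above tumor 5346. The group means were 9.46 ± 0.81 (SD, n = 3) and 7.39 ± 0.33 (SD, n = 3). The difference was 2.07 on the log2 scale, a 4.2-fold higher level in JAM-A-/- tumors (standard error 0.38, 95% interval 1.19 to 2.95, unadjusted p = 0.000719 and adjusted p = 0.213 from limma). It therefore met the criteria and did not pass the adjustment, and 3 tumors against 3 cannot give an exact two-sided permutation p below 0.1.

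A second probe set of Cldn10 gave the same order of genotypes. It read 8.91, 7.85 and 9.31 for JAM-A-/- against 6.93, 6.56 and 7.1 for JAM-A+/+, tumors in the order above. Tumor 5346 was again the lowest of its group, and the difference was 1.83 (standard error 0.35, adjusted p = 0.219 from limma). The annotation pairs both probe sets with the same 6 RefSeq transcripts, so neither can be assigned to one of the starts shown above. A further probe set is annotated to Dzip1, the next gene along the chromosome, as well as to Cldn10, and was left out by the rule. It read between 5.1 and 5.42, around the olfactory receptor percentile, and its difference of 0.22 had a 95% interval of -0.02 to 0.47.

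The Cldn10 difference met the criteria under each of the 15 other settings tried, at 1.62 (array weights) to 2.53 (without tumor 5346), and its adjusted p over these settings ran from 0.118 to 0.735. Without tumor 5333 it was 1.92. By root mean square distance between profiles centred on each gene's mean, the genes nearest to Cldn10 among 19928 others were Scgb1b27, a secretoglobin (distance 0.26), Atp2a3, which pumps calcium into the endoplasmic reticulum (0.34), and Slc6a2, the noradrenaline transporter (0.53), where the deviation of Cldn10 itself from its mean was 1.15. Scgb1b27 read 12.38, 11.66 and 12.7 for JAM-A-/- against 9.72, 10.16 and 10.71 for JAM-A+/+. Atp2a3 was highest in tumor 5333, at 11.06, and Slc6a2 in tumor 5347, at 8.22. All 3 met the criteria as higher in JAM-A-/- tumors, at differences of 2.05, 1.93 and 1.33, and none passed the adjustment. They were picked for likeness to Cldn10, so their direction adds no support.

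**Figure D2:**
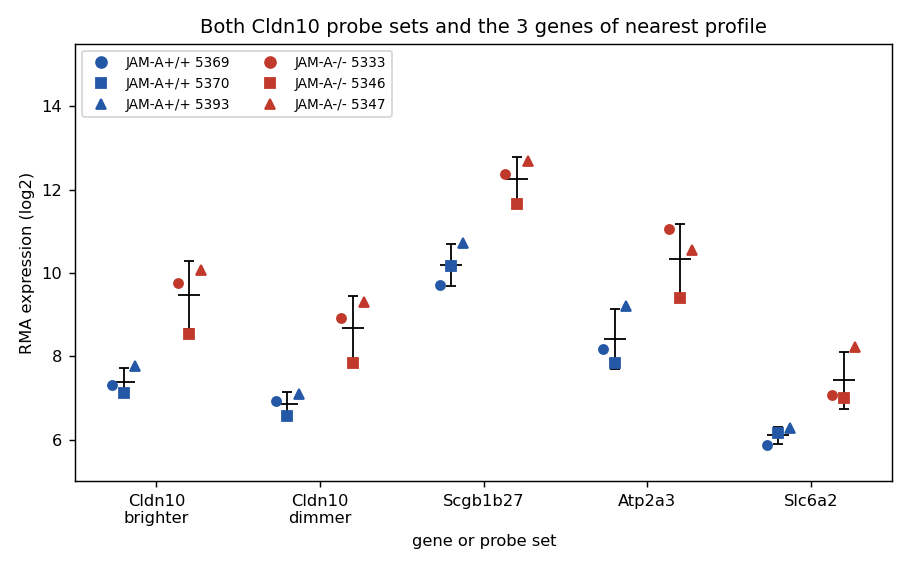
Vertical axis, RMA log2 expression of both Cldn10 probe sets and the 3 genes with the nearest profile (horizontal axis) with JAM-A+/+ in blue and JAM-A-/- in red. Brighter and dimmer are the probe sets with mean levels of 8.43 and 7.78, symbols are tumors, ticks are group means and bars are 1 SD. In each column every JAM-A-/- tumor lies above every JAM-A+/+ tumor, and for Cldn10 tumor 5346 is the lowest of the JAM-A-/- tumors.

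Cldn10 is also a claudin of secretory glands, and markers of salivary gland were therefore set beside it. All 12 listed markers were measured, and their mean level ran from 6.79 to 8.14 in the JAM-A-/- tumors and from 6.49 to 6.58 in the JAM-A+/+ tumors. Pip, Aqp5 and Scgb1b27 met the criteria as higher, where 4.73% of all genes did, while Muc19, Bpifa2 and Smgc had mean levels below 5.32. Of the 12, 9 had a difference above 0 and 3 below, beside 71.8% of all genes above 0. Prol1 was highest in JAM-A+/+ tumor 5369, at 9.19, and Amy1 in JAM-A+/+ tumor 5393, at 6.58. Pip, a secreted glandular protein, read 11.93 in tumor 5333 but 7.2 and 7.57 in tumors 5346 and 5347 and 5.2 to 7.39 in the JAM-A+/+ tumors. Dcpp1 and Dcpp2, from a family of secreted salivary proteins, were likewise highest in tumor 5333, at 11.24 and 10.72, and stood at or below 8.22 and 6.08 in every other tumor. Aqp5 and Scgb1b27 were higher in all 3 JAM-A-/- tumors than in any JAM-A+/+ tumor, as were 12.4% of all genes. Scgb1b27 is also the gene of nearest profile to Cldn10, so its direction adds no support here or in the mean of the list. The part of the salivary markers in the Cldn10 difference was not tested.

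Cldn8, a sealing claudin, stood just outside the criteria. It read 9.03, 8.73 and 8.89 for JAM-A-/- (5333, 5346, 5347) against 8.27, 8.57 and 8.7 for JAM-A+/+ (5369, 5370, 5393). The groups did not overlap, but the gap between tumors 5346 and 5393 was small beside the spread within each group. The difference was 0.37 (standard error 0.15, 95% interval 0.02 to 0.72, unadjusted p = 0.0411 and adjusted p = 0.443 from limma), a fold of 1.29 where 1.3 was needed. It met the criteria with each array centred on its median (0.43) and without tumor 5393 (0.46) or 5346 (0.45). In the same order, 1620, 1299 and 808 of all 19938 genes then met them as higher, against 944 with none of these changes. The Cldn8 difference was 0.23 to 0.25 under both quantile normalizations. Its unadjusted p was above 0.05 there, with array weights (0.24) and with equal or unequal variances of each probe set alone.

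Cldn3, Cldn4 and Cldn7, the claudins of the claudin-low definition, did not meet the criteria and overlapped between genotypes. Cldn3 read 10.96, 11.38 and 11.56 for JAM-A-/- against 10.84, 11.2 and 11.33 for JAM-A+/+. Cldn4, which like Cldn3 is a receptor of the Clostridium perfringens enterotoxin, read 10.17, 10.14 and 10.24 against 10.1, 10.45 and 10.48. Cldn7, which binds the adhesion molecule Epcam, read 10.01, 10.37 and 10.42 against 9.88, 10.21 and 10.44. Cldn3 and Cldn7 were lowest in tumor 5369 and next lowest in tumor 5333, while Cldn4 differed by 0.38 at most across all 6 tumors. The differences were 0.18 for Cldn3 (95% interval -0.28 to 0.63), -0.16 for Cldn4 (-0.48 to 0.16) and 0.09 for Cldn7 (-0.33 to 0.51), and each interval includes a 1.3-fold difference in at least a single direction. Their adjusted p values from limma were 0.755, 0.681 and 0.874. Cldn3 and Cldn7 turned to the other sign, at -0.02 and -0.13, with quantile normalization over the probe sets listed in the annotation, and under both quantile normalizations Cldn4 was -0.37, with unadjusted p = 0.0122 over all and 0.00883 over the listed probe sets from limma, just short of 1.3-fold and with adjusted p of 0.349 and 0.401. Cldn3 and Cldn4 are adjacent protein-coding genes on chromosome 5.

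Cldn1, Cldn2 and Cldn12 varied more within the genotypes than between them. Cldn1, a sealing claudin needed for the skin barrier, read 9.02, 10.59 and 10.63 for JAM-A-/- against 9.39, 10.05 and 10.36 for JAM-A+/+. Tumor 5333 was the lowest of all 6 for Cldn1, more than 1.5 below the other JAM-A-/- tumors, and the difference of 0.15 had the widest interval of the 10 claudins (-0.89 to 1.19). Without tumor 5333 it was 0.68 and met the criteria (unadjusted p = 0.045 and adjusted p = 0.287 from limma), and without tumor 5346, 5347 or 5369 it lay below 0. Of all genes, 2018 met the criteria as higher without tumor 5333, against 944 with all 6 tumors. Cldn2, which forms a cation and water pore, read 8.01, 8.06 and 9.15 against 8.23, 8.23 and 8.64. It was highest in tumor 5347, and its difference of 0.04 (-0.67 to 0.75) was -0.33 without that tumor. Cldn12, a claudin whose tail lacks the motif that binds ZO-1, read 7.65, 8.08 and 8.35 against 7.74, 8.08 and 8.0, a difference of 0.09 (-0.36 to 0.54). The adjusted p values of Cldn1, Cldn2 and Cldn12 from limma were 0.922, 0.972 and 0.887.

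Cldn15 and Cldn23 also missed the criteria. Cldn15, a cation pore of the intestine, stayed between 5.62 and 5.87 in all 6 tumors, with a difference of 0.11 (95% interval -0.15 to 0.37, adjusted p = 0.742 from limma). Cldn23 read 6.35, 6.29 and 6.73 for JAM-A-/- against 6.63, 6.7 and 7.01 for JAM-A+/+. Tumors 5333 and 5346 were below all JAM-A+/+ tumors and tumor 5347 was not, and the difference was -0.32 (95% interval -0.71 to 0.06, adjusted p = 0.511 from limma). Cldn23 met the criteria as lower with array weights (-0.42), with the listed probe sets quantile normalized (-0.39) and without tumor 5347 (-0.46). In the same order, 204, 303 and 147 of all 19938 genes then met them as lower, against 118 with none of these changes.

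**Figure D3:**
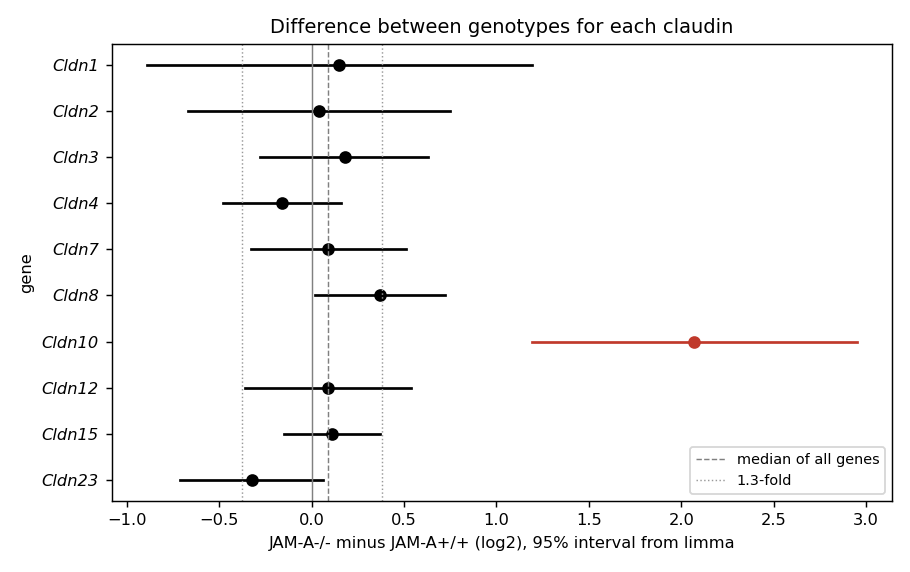
Difference between JAM-A-/- and JAM-A+/+ tumors on the log2 scale (horizontal axis, point and 95% interval from limma, 3 tumors a group) for each claudin (vertical axis). Red marks the claudin that met the criteria, the dashed line is the median of all genes at 0.09 and dotted lines are 1.3-fold. The interval of Cldn10, 1.19 to 2.95, lies apart from 0, that of Cldn8 starts at 0.02, and the other 8 include 0.

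Tumors of the same genotype also differed from each other in their claudin levels. Tumor 5347 gave the highest value of 6 of the 10 claudins and lay above the mean for 9, and tumor 5369 gave the lowest value of 4 and lay below the mean for 9. The median deviation over the 10 was -0.23, 0.06 and 0.28 in JAM-A-/- tumors 5333, 5346 and 5347 and -0.29, -0.01 and 0.17 in JAM-A+/+ tumors 5369, 5370 and 5393. The 2275 genes with a mean level of at least 9.5 had median deviations of -0.10, 0.13, 0.29, -0.27, -0.06 and 0.01 in the same order, and the tumors with the lowest and highest medians were the arrays with the narrowest and widest distance between quartiles. Once the listed probe sets were quantile normalized, the span of Cldn3 over the 6 tumors fell from 0.72 to 0.25 and that of Cldn7 from 0.56 to 0.36. The span of Cldn10 went from 2.96 to 2.75 and that of Cldn1 from 1.61 to 1.36, and that of Cldn4 rose from 0.38 to 0.55. Tumors 5347 and 5393 were then each the highest for 3 claudins.

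**Figure D4:**
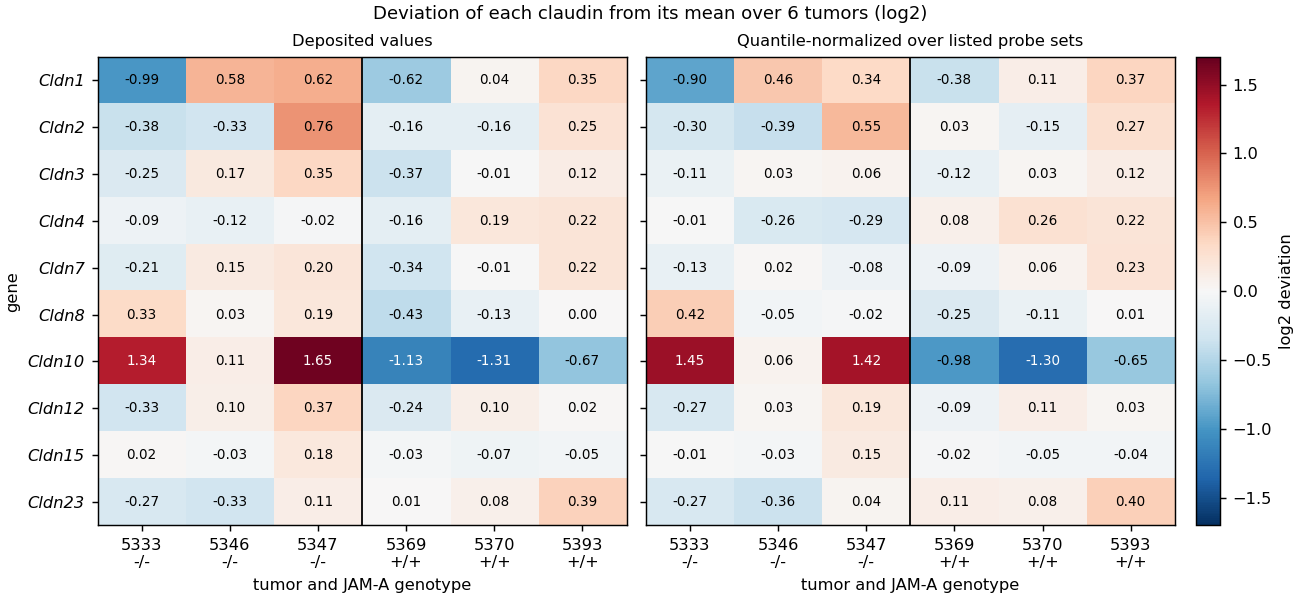
Deviation of each claudin (rows) from its own mean over the 6 tumors on the log2 scale (colour and printed value), by tumor and JAM-A genotype (columns), in the deposited values (left) and after quantile normalization over the probe sets listed in the annotation (right). Cldn10 ranges from -1.31 in tumor 5370 to 1.65 in tumor 5347 on the left, Cldn1 is lowest in tumor 5333 on both sides, and Cldn3 flattens to between -0.12 and 0.12 on the right.

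Cldn1 and Cldn2 also spanned at least 1 log2 unit, and their nearest profiles were other genes than those of Cldn10. Nearest to Cldn1 were Ttc23 (distance 0.14), Scd1, a fatty acid desaturase (0.15), and Cxcr4, a chemokine receptor (0.17), against a deviation of 0.61 for Cldn1 itself. Nearest to Cldn2 were Tfcp2l1, a transcription factor (0.10), Olfr190, an olfactory receptor at a mean level of 2.44 (0.11), and Inpp5j, a phosphoinositide phosphatase (0.14), against 0.40 for Cldn2. None of these 6 met the criteria, at differences of 0.03 to 0.35.

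Of the other claudins and claudin-domain genes, 15 were measured, and none met the criteria or had an unadjusted p under 0.05 with limma, and with equal or unequal variances none met the criteria either. Their differences lay between -0.22 and 0.20 with a median of -0.02, and 9 of the 15 had a mean level above the olfactory receptor percentile. The smallest p among them belonged to Cldn20, at -0.22 without overlap, and Cldn18, a claudin of lung and stomach, at -0.17. Cldn22, with a mean level of 5.05, was higher without overlap, at 0.16. Of all genes, 12.4% were separated as higher and 2.55% as lower, and 5.33% met the criteria in either direction. Cldn5, the claudin of blood vessels, read 6.65, 6.66 and 6.77 for JAM-A-/- against 6.4, 6.51 and 6.88 for JAM-A+/+, a difference of 0.10. Abcc4 and Dzip1, on either side of Cldn10 on chromosome 14, differed by 0.11 and 0.24, Cldn16, next to Cldn1, by -0.02, and Cldn17, next to Cldn8, by -0.11. No member lies on chromosome 1, where F11r is.

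Among 20 measured tight junction partners, which are scaffolds, polarity proteins, MARVEL proteins and relatives of JAM-A, Jam2 alone met the criteria and was higher in JAM-A-/- tumors. That is 1 gene of 20, near the 4.73% of all genes that met them as higher. Jam2, which encodes the relative JAM-B, read 7.9, 7.96 and 8.04 against 7.17, 7.32 and 7.57, a difference of 0.61 (standard error 0.14, adjusted p = 0.256 from limma) without overlap. Jam3, at 0.27, and Lsr, at 0.29, were also higher without overlap. That is 3 of the 20 separated as higher, beside 12.4% of all genes. The median of the 20 was 0.00, with 10 above and 10 below 0, beside a median of 0.09 and 71.8% above 0 over all genes. The scaffold genes that bind claudin tails were close to 0, with Tjp1 (ZO-1) at 0.05 and Tjp3 (ZO-3) at -0.08, and so was occludin (Ocln) at -0.12. Over all genes, 5.33% met the criteria in either direction. Of 18 measured genes whose proteins bind, process or regulate claudins, none met the criteria or had an unadjusted p under 0.05 with limma. None met the criteria with equal or unequal variances either, and the median of the 18 was 0.16. The smallest p values there belonged to the tetraspanin Cd151, at 0.32, and the kinase Wnk4, at 0.27. Epcam, the partner of Cldn7, read 11.62, 11.86 and 12.07 for JAM-A-/- against 11.63, 11.68 and 11.72 for JAM-A+/+.

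Epithelial markers, those of the labelled tissue, were above the olfactory receptor percentile for all 9, as were all 8 of endothelium, 8 of fibroblasts, 7 of macrophages and 7 of skeletal muscle. The epithelial list stood at mean levels of 10.58 to 11.05 in the JAM-A-/- and 10.32 to 10.74 in the JAM-A+/+ tumors, and 1 of them, Prom1, met the criteria as higher at 1.09. Over all genes, 4.73% met the criteria as higher and 0.592% as lower. Of 8 markers each, 2 of basal epithelium (Acta2 and Cnn1), 1 of endothelium (Pecam1) and 2 of fibroblasts (Pdgfra and Col1a2) met them as higher. The remaining basal markers, Krt5, Krt14, Krt17, Trp63, Myh11 and Oxtr, differed by 0.01 to 0.19 and overlapped between genotypes. Of 7 markers each, none of macrophages or T cells and 1 of skeletal muscle (Acta1, as higher) met the criteria. None of 5 B cell and 6 adipocyte markers did, 1 of 6 milk genes was lower (Csn1s1) and 1 of 6 keratinocyte markers higher (Sprr1a). The mean levels of the epithelial, endothelial, fibroblast and macrophage lists were lowest in tumor 5369 and highest in tumor 5347, at deviations of -0.41 and 0.32, -0.53 and 0.38, -0.57 and 0.41, and -0.46 and 0.37, as were those of the tight junction partners (-0.17 and 0.15) and of the binding and processing partners (-0.18 and 0.26). The part of the cell type markers in the claudin values was not tested.

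**Figure D5:**
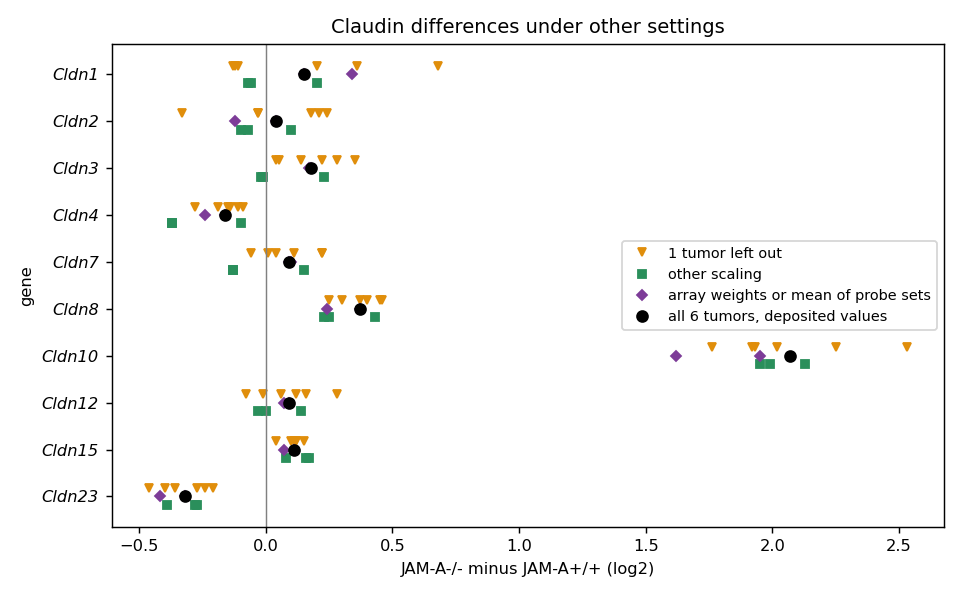
Difference between JAM-A-/- and JAM-A+/+ tumors on the log2 scale (horizontal axis) for each claudin (vertical axis) with all 6 tumors and deposited values (black), with 1 tumor left out (orange), with other scalings (green) and with array weights or the mean of a gene's probe sets (purple). Cldn10 stays between 1.62 and 2.53, Cldn4 and Cldn23 stay below 0, Cldn8 and Cldn15 stay above 0, and the other 5 lie on both sides of 0.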

How the data were processed

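The deposited values are log2 expression values of 35557 probe sets, made by the authors with RMA in Affymetrix Expression Console 1.1 (named in the submitters' processing notes) and rounded to 2 decimals. RMA corrects background, quantile normalizes arrays and summarises probes, so total RNA is not kept, with settings that the sources do not state. The deposited arrays did not share a distribution, with distances between quartiles of 3.27 to 3.74. Tumors were grouped by their titles. No batch or scan date is known, and array number (3 a group) limits the precision. All probe sets were fitted with limma 3.58.1 in R 4.3.3 (default empirical Bayes, no covariate, Benjamini-Hochberg adjustment), and JAM-A+/+ was subtracted from JAM-A-/-. The criteria, an unadjusted p under 0.05 together with a 1.3-fold or greater difference, take their cutoffs from the study's signature list. Here they were applied to limma p-values, and the test behind the study's own p-values may differ. With limma 944 genes met them as higher and 118 as lower, and with equal variances of each probe set alone 491 and 64 did. The fit was tested on simulated data. The annotation gives 21789 probe sets 1 symbol, 1621 several and does not list 12147.

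The members and lists were chosen with earlier results of these data known. Named genes are F11r, the 10 claudins with their probe sets, members of the partner lists that met the criteria or otherwise the 2 with the smallest p, and the 3 nearest profiles of each claudin spanning at least 1. Cldn5, Tjp1, Tjp3, Ocln, the chromosomal neighbours, and Dcpp1, Dcpp2, Muc19, Bpifa2, Smgc, Prol1 and Amy1 were added after their values were seen. Cldn22, Jam3 and Lsr also fall outside that rule and were named because their groups did not overlap. RefSeq tables gave names, gene order and upstream sequences. Lists were 10 claudins, other claudins, tight junction partners, binding and processing partners, and markers of epithelium, basal epithelium, endothelium, fibroblasts, macrophages, T cells, B cells, adipocytes, skeletal muscle, salivary gland, milk and keratinocytes. Alternatives were other variances, a trended robust prior, array weights, 3 scalings, leaving out the 40% dimmest probe sets, a fold of 1.5, the mean of a gene's probe sets, and leaving out each tumor.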

Additional observations from a re-analysis of the deposited data

How the results depend on the processing

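Of 150 recomputed differences of single claudins, 124 kept their sign and their side of the criteria, 7 newly met the criteria and 19 changed sign, all of them of claudins that did not meet the criteria. With quantile normalization over all probe sets Cldn1 was -0.06, Cldn2 -0.07, Cldn3 -0.01 and Cldn7 -0.13. Over the listed probe sets Cldn1 was -0.07, Cldn2 -0.10, Cldn3 -0.02, Cldn7 -0.13 and Cldn12 -0.03, and the median of all genes was 0.002 in place of 0.09. With array weights Cldn2 was -0.12. Leaving out each tumor in turn gave -0.13 to 0.68 for Cldn1, -0.33 to 0.24 for Cldn2, -0.06 to 0.22 for Cldn7 and -0.08 to 0.28 for Cldn12.

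Instead of 1 claudin, 2 met the criteria with array weights or when listed probe sets alone were quantile normalized (Cldn23 beside Cldn10) and with centring on array medians (Cldn8 beside Cldn10), and 1 to 2 did with a tumor left out. Other claudins meeting them numbered 0 to 1 with a tumor left out (Cldnd1 without 5333). Tight junction partners numbered 2 under both quantile normalizations (Magi3, lower, beside Jam2) and 1 to 2 with a tumor left out (Jam3 without 5393). Binding and processing partners numbered 1 under both quantile normalizations (Elf5, lower) and 0 to 3 with a tumor left out, with Spint2, Cd9 and Cd81 without 5333 and Elf5 without 5347. The cause of these changes was not tested. No paired analysis was possible because the litter behind each array could not be read from the sources.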
